A study of Mus musculus with 43 samples.

Results

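Potassium channels set the resting potential and the firing of neurons, and 92 genes of pore-forming and auxiliary potassium channel subunits were followed in NAcLat→VTA cells, the neurons of the lateral nucleus accumbens shell that project to the ventral tegmental area. The members were all genes of the expression tables whose symbol is made of Kcn, further letters and a closing number, which gave 92 of 35825 genes. The rule reads the symbol and uses no measured value. Of the 92 genes, 84 had counts in at least 1 cell and 49 passed a filter on low values, which asked for more than 15 CPM (counts of a gene divided by the total count of the cell and scaled to 1000000) in at least 5 cells and a mean above 4 CPM. Over all genes, 10802 passed that filter.

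The cells came from C57BL/6J mice of 6 to 8 weeks in which retrogradely transported beads placed in the ventral tegmental area had marked the projection, and each was recorded in a brain slice before its content was drawn into the patch pipette and sequenced. REG mice ate standard chow (23 cells, 10 mice), and HFD mice had free access to both standard chow and chow with 60% fat for at least 4 weeks (20 cells, 11 mice). No transgene or deletion is named for these animals, males and females were both used, and the beads were common to both diets. The labels also divide the cells into 2 batches, with 13 REG and 5 HFD cells in batch 1 and 10 REG and 15 HFD cells in batch 2, so the diets were not spread evenly over the batches. The mouse of a cell is not named. Each diet was therefore read as 1 sample, and no p-value or standard error was formed from cells. The comparison of the diets addresses how the transcripts of these cells differ after chronic access to fat-rich food.

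The total estimated count of a cell ranged from 176961 to 16919555, with a median of 1426795. Transcripts of medium spiny neurons, the main cell type of the accumbens, were present in every cell, and 8 of their markers summed to a median of 3940 CPM. In 2 HFD cells of batch 2 that sum was 479 and 488 CPM, against 1513 CPM or more in the other 41 cells. Markers of D1 cells had a median sum of 1918 CPM and markers of D2 cells a median of 0 CPM. Markers of microglia (8 genes, all with counts) summed to between 0.972 and 1679 CPM in a cell, with a median of 68.8 CPM. Markers of oligodendrocytes (6 genes, all with counts) summed to between 1.41 and 1781 CPM, with a median of 148 CPM. Of 5 endothelial markers, *Pecam1* had counts in 43 cells and a mean of 553 CPM, while *Kdr* and *Flt1* had means of 2.61 and 2.24 CPM and *Cldn5* and *Cdh5* had counts in 1 cell each.

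The genes of this group fall into a few structural kinds. Voltage-gated subunits (Shaker, Shab, Shaw, Shal, KCNQ and the EAG, ERG and ELK genes) assemble around a common pore and open on depolarization, inward rectifiers pass current best near the resting potential, two-pore channels carry leak current, and channels gated by calcium or sodium shape the hyperpolarization that follows spikes. Auxiliary subunits form no pore but change the gating and the surface level of their partners. Medium spiny neurons are known for a very negative resting potential held by inward rectifiers and for a slow ramp to the first spike, to which Shal and Shaker currents contribute.

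What makes a pore select potassium is a short loop whose coding stretch could be read in the reference transcripts of the mouse annotation (GENCODE M21, GRCm38). The search took 5 successive codons in frame on the coding strand: threonine (ACN) or serine (TCN, or AGC or AGT), then any codon, then GGN, then a codon for tyrosine (TAC or TAT), phenylalanine (TTC or TTT) or leucine (TTA or TTG, or CTN), then GGN. All 77 pore-forming members held such a run in their longest complete coding sequence, and none of the 15 auxiliary members did. Among all 21551 protein-coding genes with a complete coding sequence, 5.438% held it at least once, so the letters alone do not name a channel. Each of the 14 two-pore members held at least 2 runs, which is the trait that gives that family its name. The following windows are shown for some of the leading pore-forming genes of these cells and for 2 pairs of close relatives that the results return to. Capitals mark the 9 bases of the closing glycine codon pair and the codon between them.
Kcnt1: ttctcaactgtgGGCTTCGGTgatgtgacg
Kcnt2: ttttctactgtgGGCTTTGGGgatgtcact
Kcnma1: atgtctacagtgGGTTATGGGgacgtttat
Kcnk2: atcacaaccataGGATTTGGAaacatctcc
Kcnh3: ctcaccagtgtgGGCTTCGGCaacgtgtcc
Kcna1: atgaccactgtgGGATACGGTgacatgtac
Kcnj2: cagacaaccattGGCTATGGTttcaggtgt
Kcnd2: atgacaacactgGGGTATGGCgacatggta
Kcnd3: atgactacactgGGATATGGAgacatggtg
Of the pore-forming members with an unambiguous window, 73 were counted here. Two-pore members, *Kcnk2* among them, were read at their first run only, and their later runs were not counted. The middle codon of the 73 was TAC or TAT (tyrosine) in 58 and TTC or TTT (phenylalanine) in 15. The second group holds *Kcnt1*, *Kcnt2*, *Kcnk2* and *Kcnh3*. *Kcnt1* and *Kcnt2* differed at 6 of 30 bases and *Kcnd2* and *Kcnd3* at 4, with 2 of the 9 capitals among the differences in each pair.

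The windows of *Kcnt1* (chr2:25894361-25894390, plus strand, exon 11 of its transcript), *Kcnt2* (chr1:140425272-140425301, plus strand, exon 9) and *Kcnh3* (chr15:99232923-99232952, plus strand, exon 8) each lie within 1 coding exon. So does that of *Kcnma1* (chr14:23528404-23528433, minus strand, exon 8). The windows of *Kcna1* (chr6:126642219-126642248, minus strand) and *Kcnj2* (chr11:111072201-111072230, plus strand) lie in exon 2 of their transcripts. In *Kcnk2*, *Kcnd2* and *Kcnd3* the stretch is split over 2 exons. All coordinates are GRCm38.

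A cell had counts for a median of 43 of the 92 genes (lowest 24, highest 57). The median was 43 in REG cells and 42.5 in HFD cells. Depth set part of this number, since after each cell was thinned to 150000 counts the median was 33, and REG cells then had a median of 33 and HFD cells of 32. Counts in all 43 cells were found for 2 members, *Kcnip2* among them, 10 more were found in 40 to 42 cells and 34 in 22 to 39 cells. At the other end, 17 members were found in 1 to 5 cells and 8 in none, namely *Kcne1*, *Kcng2*, *Kcnj8*, *Kcnj13*, *Kcnk15*, *Kcnmb2*, *Kcns3* and *Kcnv2*. With 3 cells taken as the limit for a count of 0, a share of 0 of 43 cells allows up to 6.98% by counting error alone.

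Levels between genes were compared on TPM, the authors' unit, which is also scaled to a fixed total but divides by transcript length. *Kcnip2*, which encodes a calcium-binding KChIP subunit of Shal channels, stood first, with a mean of 225 TPM and a median of 170 TPM over the 43 cells (range 0.708 to 957 TPM). Its mean lies at the 95.1st percentile of the mean TPM of all filtered genes. It was the highest Kcn gene in 20 of 43 cells, 10 REG and 10 HFD, while 15 other members led the remaining 23 cells. *Kcnt1*, which encodes a sodium-activated channel, followed with a mean of 104 TPM and a median of 52.9 TPM. *Kcnab1*, the beta subunit of Shaker channels, had a mean of 95.3 TPM and a median of 73.9 TPM, so it stood above *Kcnt1* by the median and below it by the mean.

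**Figure D1:**
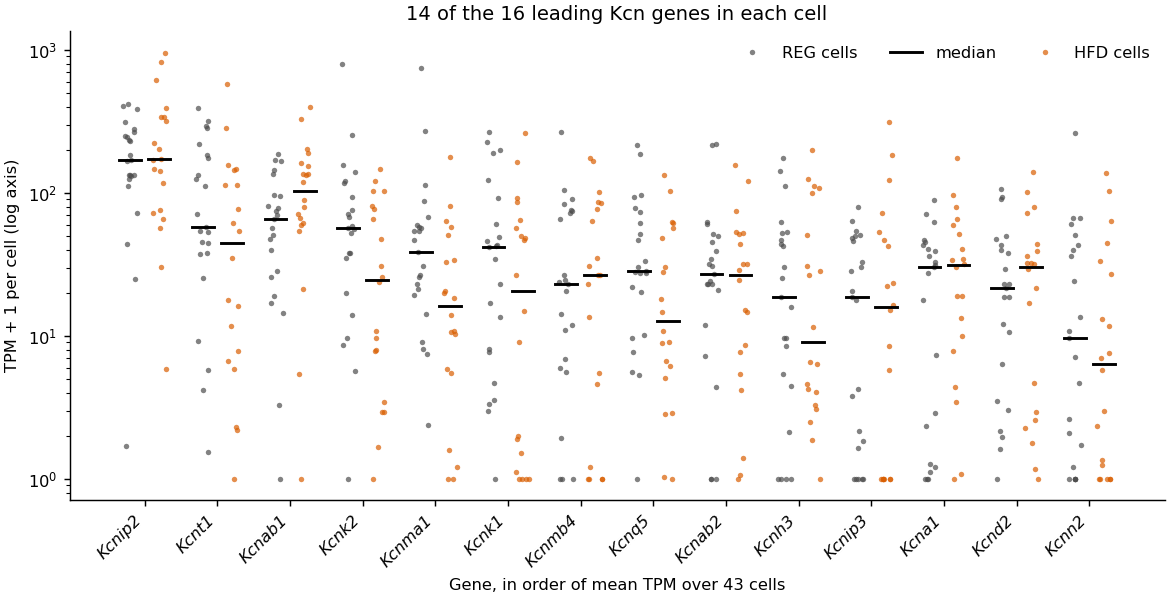
TPM plus 1 of 14 of the 16 Kcn genes with the highest mean TPM, on a log axis, with 1 point per cell (grey, 23 REG cells; orange, 20 HFD cells) and a bar at the median of each diet. *Kcnip2* has the highest median in both diets, and points of REG and HFD cells overlap in every gene.

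Other leading members were *Kcnk2*, a mechanosensitive leak channel (mean 72.5 TPM), *Kcnma1*, the pore of the BK calcium-activated channel (56.4 TPM), and *Kcnk1*, a weakly conducting two-pore channel (55.6 TPM). Most of these neighbours could not be ranked cell by cell. *Kcnip2* exceeded *Kcnt1* in 34 of 43 cells, but *Kcnt1* exceeded *Kcnab1* in 15, and *Kcnk2* exceeded *Kcnma1* in 23. From *Kcnma1* down to *Kcna1* (31.9 TPM), each gene exceeded the next-ranked one in between 19 and 22 of 43 cells.

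The spread over cells was wide in every gene. The SD of *Kcnt1* was 125 TPM around its mean of 104 TPM, and that of *Kcnk2* was 125 TPM around 72.5 TPM. For *Kcnk2*, 1 REG cell stood at 792 TPM and the next highest cell at 254 TPM. On the CPM scale the same REG cell had 67.6 CPM, and *Kcnk2* ranked 10th of the members by mean CPM. A few members reached a high level in single cells in place of a broad one. *Kcnq1* was found in 2 of 43 cells, both HFD, and was the highest Kcn gene in 1 of them at 387 TPM. On the CPM scale it did not lead that cell, with 48.4 CPM against 405 CPM for *Kcnip2*, and it shares 2.96% of its exon bases with a gene on the opposite strand. *Kcne3*, an auxiliary subunit best known from epithelia, was found in 5 cells and led 1 HFD cell at 368 TPM. Their means, 9.13 and 12.8 TPM, therefore rest on single cells, and neither gene passed the filter.

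Summed by family, the auxiliary subunits of voltage-gated channels (11 *Kcnab*, *Kcne* and *Kcnip* genes, 6 past the filter) held 31.9% of the TPM of all members, with a median of 386 TPM in a cell (range 86.5 to 1682 TPM). *Kcnip2* made up 50.5% of that sum. The two-pore genes held 11.6% and the KCNQ genes 11.2%. *Kcnk2* made up 44.9% of the two-pore sum, and it shares 12.2% of its exon bases with a gene on the opposite strand.

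The sodium-activated genes held 8.48%, of which *Kcnt1* made up 87.9%, and the BK genes held 7.49%. The EAG, ERG and ELK genes held 6.50%, led by the forebrain ELK gene *Kcnh3* at 38.4 TPM, and the Shaker genes held 5.44%, led by *Kcna1* at 31.9 TPM. The inward rectifiers, the family with the most genes (15), held 4.12%. The silent subunits held 3.17%, led by *Kcnf1* at 15.6 TPM, and the Shal genes 3.15%, led by *Kcnd2* at 31.1 TPM. The SK and IK genes held 2.70%, led by *Kcnn2* at 26.4 TPM, the Shab genes 2.59%, and the Shaw genes 1.70%, led by *Kcnc1* at 15.4 TPM.

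**Figure D2:**
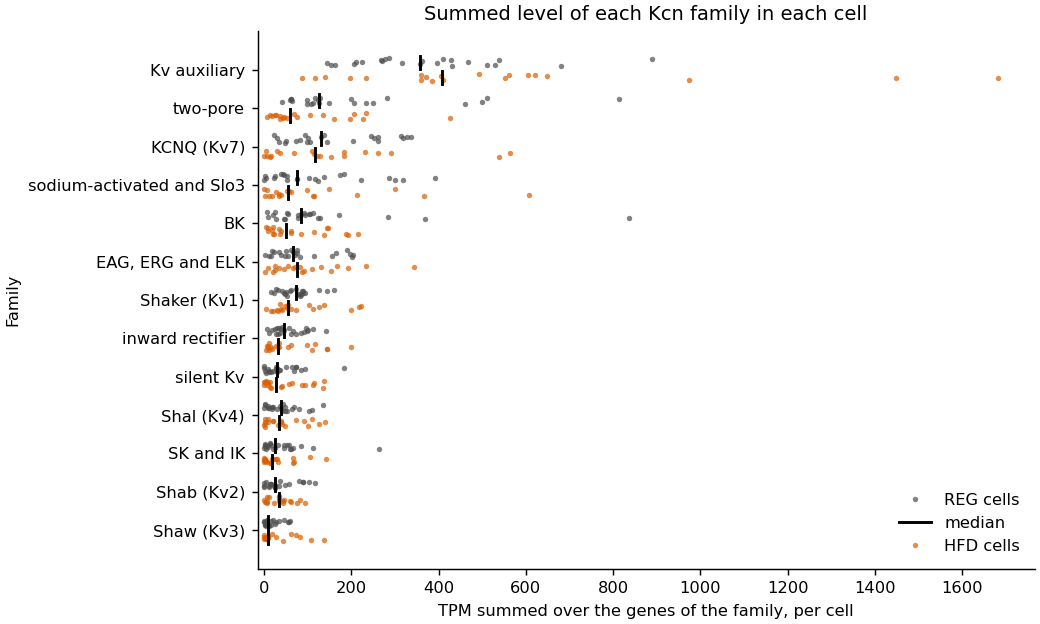
TPM summed over the genes of each Kcn family in each cell, with 1 point per cell (grey, REG; orange, HFD) and a bar at the median of each diet, families in order of their mean. The auxiliary subunits lie highest, from 86.5 to 1682 TPM, and the Shaw genes lowest.

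Subunits known to assemble with each other were read cell by cell. Transcripts of Shal pores (*Kcnd1* to *Kcnd3*) and of KChIPs (*Kcnip1* to *Kcnip4*) were both present in all 43 cells, and the summed TPM of the KChIPs exceeded that of the pores in 42. The KChIP sum had a median of 236 TPM and the Shal sum a median of 38.6 TPM. *Kcnip2* carried most of it. *Kcnip3* had a median of 16.8 TPM with counts in 31 cells, *Kcnip4* a median of 2.22 TPM with counts in 34 cells, and *Kcnip1* a median of 0.0503 TPM with counts in 22 cells. Among the pores, *Kcnd2* had a median of 22.1 TPM, *Kcnd3* 0.687 TPM and *Kcnd1* 0.167 TPM. The other auxiliary partners of Shal pores, *Dpp6* and *Dpp10*, had counts in 43 and 39 cells and together exceeded the pores in 34.

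**Figure D3:**
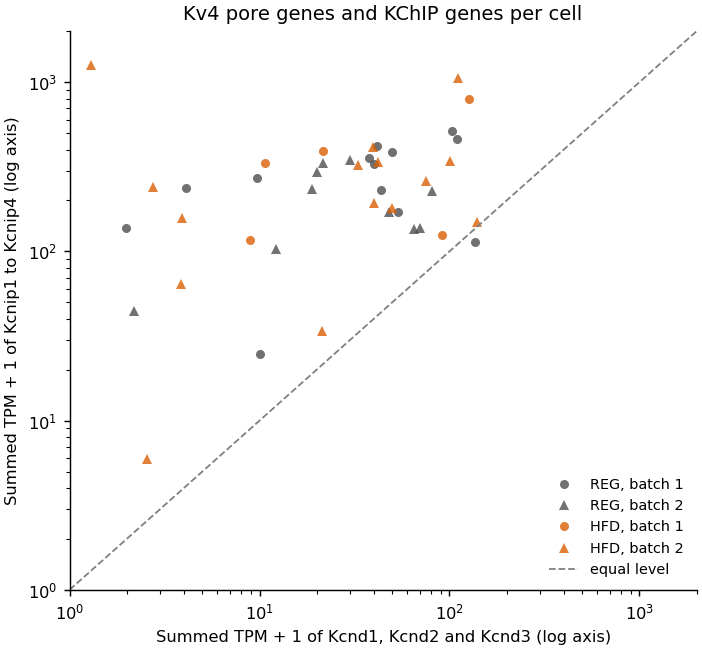
Summed TPM plus 1 of the Shal pore genes *Kcnd1* to *Kcnd3* (x axis, log) against that of the KChIP genes *Kcnip1* to *Kcnip4* (y axis, log), 1 point per cell, with colour for diet, shape for batch and a dashed line of equal level. Points lie above the line in 42 of 43 cells.

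For the M current, which restrains repetitive firing, *Kcnq3* was found in 41 cells with a median of 8.72 TPM and *Kcnq5* in 41 cells with a median of 26.5 TPM. For BK channels, *Kcnma1* was found together with at least 1 beta gene in 37 cells. Of the beta genes, *Kcnmb4*, the form typical of neurons, led with a mean of 44.1 TPM, while *Kcnmb1*, the form of smooth muscle, had 2.14 TPM and *Kcnmb2* no counts. Exons of *Kcnmb4* share 31.5% of their bases with antisense transcripts, and reads of the partners cannot be told apart there without strand.

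The inward rectifiers that hold the resting potential of these neurons were modest transcripts. *Kcnj2* had counts in 42 of 43 cells, with a median of 3.08 TPM and a mean of 13.8 TPM, and *Kcnj4* had counts in 29 cells, with a median of 3.07 TPM and a mean of 13.3 TPM. Both were present in 28 cells, *Kcnj2* without *Kcnj4* in 14 and *Kcnj4* without *Kcnj2* in 1. *Kcnj4* exceeded *Kcnj2* in 20 cells, so the order of the pair differed from cell to cell. *Kcnj12* was found in 10 cells and *Kcnj14* in 2.

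The channels opened by G-protein-coupled receptors were thinner still. *Kcnj3* had counts in 21 cells, *Kcnj9* in 27 and *Kcnj6* in 5, and *Kcnj3* occurred with at least 1 of *Kcnj5*, *Kcnj6* and *Kcnj9* in 18 cells. In 5 cells none of the 4 genes had counts. *Kcnj3* shares 31.1% of its exon bases with another gene, so its counts are uncertain. *Kcnj11*, the pore of the ATP-sensitive channel, was found in 17 cells, and in 15 of them with a sulfonylurea receptor gene (*Abcc8* or *Abcc9*). Its vascular relative *Kcnj8* had no counts.

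Most members known from other cells of the brain were low or rare. *Kcnj8* of mural cells and *Kcnj13* of choroid plexus had no counts. *Kcnj10* and *Kcnj16*, which are typical of astrocytes, had counts in 29 and 19 cells but means of 0.855 and 1.22 TPM. Astrocyte markers (7 genes, all with counts) summed to a median of 9.57 CPM and at most 303 CPM in a cell. *Kcnc2*, of fast-spiking interneurons, had counts in 12 cells and a mean of 0.905 TPM. *Kcnc1*, known from the same interneurons, was an exception, with counts in 38 cells and a mean of 15.4 TPM. *Kcnn4*, known from microglia and other immune cells, was found in 39 cells at a median of 0.690 TPM. From the same set, *Kcnk6* was found in 33 cells with a mean of 3.17 TPM and *Kcna3* in 10 cells with a mean of 5.96 TPM.

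*Kcnk13*, the two-pore channel of microglia, differed from most of these. It was at 0 in 26 cells and above 15 CPM in 10. The 4 cells with more than 100 CPM of *Kcnk13* had 264, 174, 137 and 103 CPM, and their summed microglial markers were 114, 16.8, 325 and 3.81 CPM in the same order. The highest microglial sum of any cell was 1679 CPM, in a REG cell with 0 CPM of *Kcnk13*. An HFD cell with a sum of 1657 CPM had 2.97 CPM of *Kcnk13*. The part of microglial transcripts in the level of *Kcnk13* was not tested.

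The diets were compared as the log2 ratio of mean CPM in HFD cells over mean CPM in REG cells. The sum over all 92 genes was nearly level, with a mean of 2728 CPM ± 1389 (SD, 20 cells) in HFD cells and 2636 CPM ± 727 (SD, 23 cells) in REG cells, a log2 ratio of 0.05. Within batch 1 the ratio was 0.30 and within batch 2 it was 0.04. Over the 49 filtered members the ratios had a median of 0.03, against −0.13 over the 10802 filtered genes, and a distance between the quartiles of 0.88, against 1.05. Above 0 lay 27 members and below 0 lay 22, against 4627 and 6175 of all filtered genes. In both batches alike, 10 of 49 members were above 0 and 8 below, against 2158 and 3154 of the 10795 genes with a ratio in both batches.

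Few members passed 2-fold. Higher in HFD cells by more than 2-fold were 2 of 49 members, *Kcnt2* and *Kcnab3*, or 4.08%, where 9.04% of all filtered genes were. Lower by more than 2-fold were *Kcnd3* and *Kcnk3*, also 4.08%, where 14.3% of all filtered genes were. A ratio was called when it also had the same sign within both batches, which left *Kcnt2* and *Kcnab3* as higher (4.08% of members, 6.46% of all filtered genes) and *Kcnd3* as lower (2.04% of members, 11.7% of all filtered genes). *Kcnt2* and *Kcnab3* passed the filter through the HFD cells: above 15 CPM were 4 REG and 8 HFD cells for *Kcnt2* and 1 REG and 6 HFD cells for *Kcnab3*, and neither gene would have passed in REG cells alone, so their direction was tied to their passing it. The range of the REG cells overlapped that of the HFD cells in all 49 members, as it did in all 10802 genes. Scaling by TMM factors or by DESeq2 size factors gave 5 of 49 members called higher (10.2%) and 0 called lower, so the balance of directions depends on the scaling. Of all filtered genes, 8.4% were called higher and 10.2% lower with the TMM factors, and 12.4% and 10.1% with the DESeq2 size factors. Just past the 2-fold limit stood *Kcnd3* at −1.004, and somewhat further past it *Kcnk3* at −1.19. Just short of the limit stood *Kcns2* at 0.99, *Kcnk13* at −0.95 and *Kcnip3* at 0.94.

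**Figure D4:**
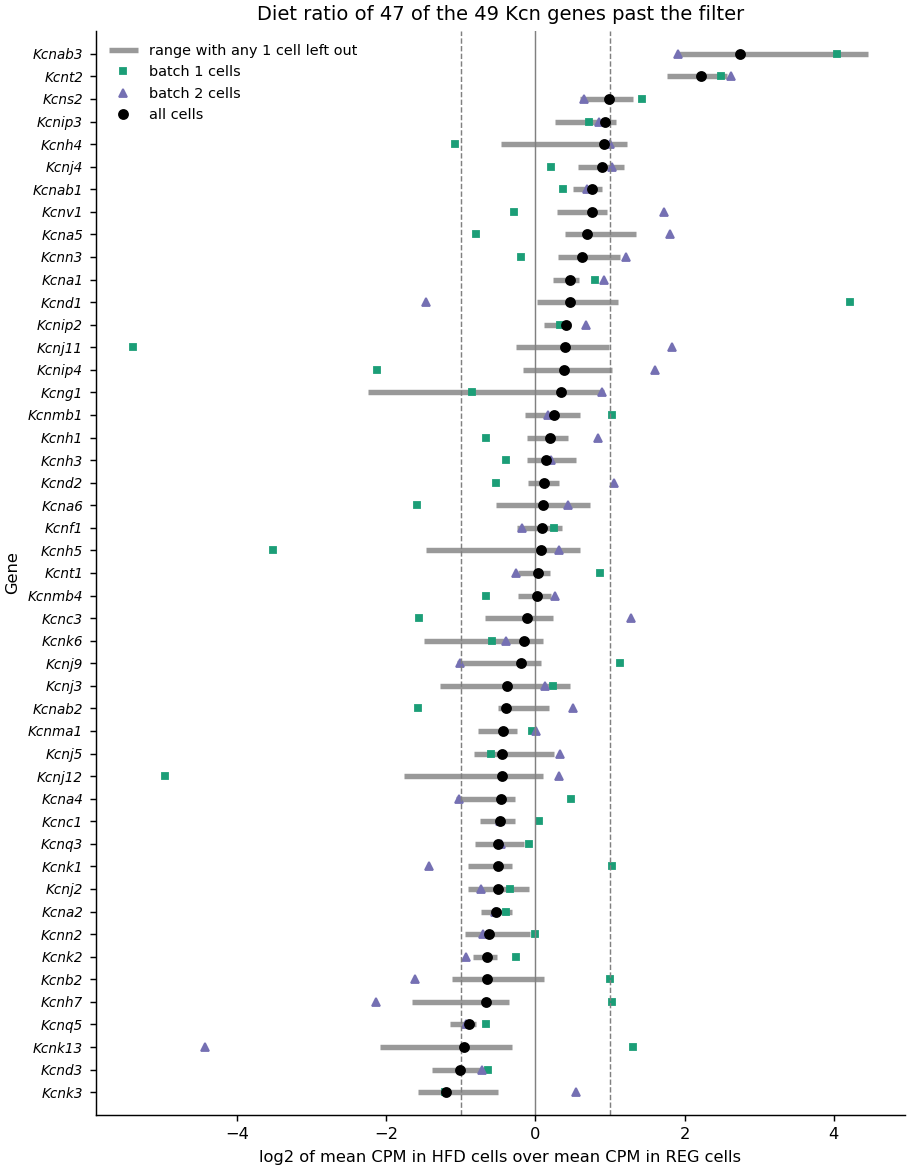
Log2 ratio of mean CPM in HFD over REG cells for 47 of the 49 Kcn genes past the filter, sorted, for all cells (black circles), batch 1 (green squares) and batch 2 (violet triangles), with a grey bar for the range when any 1 cell is left out and dashed lines at 2-fold. Most members lie within 2-fold, and the batches stand on opposite sides of 0 in 29 of the 47 genes.

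*Kcnt2* encodes the second sodium-activated channel, a relative of *Kcnt1*. Its level in the 5 HFD cells of batch 1 was 0, 1.86, 15.2, 34.8 and 192 CPM, and in the 15 HFD cells of batch 2 it ran from 0 through a median of 2.25 to 108 CPM. In REG cells it ran from 0 through 5.65 to 38.5 CPM in batch 1 and from 0 through 0.289 to 15.5 CPM in batch 2. A minority of HFD cells thus lay above every REG cell, while the medians of the diets, 2.74 CPM in HFD and 4.12 CPM in REG, had the opposite order.

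The mean was 31.2 CPM ± 50.3 (SD, 20 cells) in HFD and 6.70 CPM ± 9.37 (SD, 23 cells) in REG, a log2 ratio of 2.22. The ratio was 2.49 within batch 1 and 2.62 within batch 2, and leaving out single cells kept it within 1.77 to 2.57. The gene was found in 14 cells of each diet, 60.9% of REG cells (exact 95% interval 38.5 to 80.3%) and 70.0% of HFD cells (45.7 to 88.1%). These intervals treat cells as independent, cover counting error only and do not compare the diets. The relative *Kcnt1* had a log2 ratio of 0.03.

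*Kcnab3* encodes the third beta subunit of Shaker channels. In REG cells it was at 0 in 16 of 23 cells and reached 29.8 CPM in 1. In the HFD cells of batch 1 it was at 0, 0, 15.7, 22.8 and 33.6 CPM, and in those of batch 2 it ran from 0 through a median of 0 to 116 CPM. The cell with 116 CPM made up 47.2% of the HFD mean, and it is 1 of the 2 cells with a low sum of medium spiny neuron markers, 488 CPM, beside 1035 CPM of microglial markers. The mean was 12.3 CPM ± 26.5 (SD, 20 cells) in HFD and 1.83 CPM ± 6.21 (SD, 23 cells) in REG, a log2 ratio of 2.75.

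Without that cell the ratio of *Kcnab3* was 1.90, and without the highest REG cell, which held 70.7% of the REG mean, it was 4.46. With both cells of low medium spiny neuron markers set aside it was 1.98, with 4.05 in batch 1 and 0.53 in batch 2. The gene was found in 7 REG cells (30.4%, exact 95% interval 13.2 to 52.9%) and 10 of 20 HFD cells (interval 27.2 to 72.8%). Here too the intervals treat cells as independent and do not compare the diets. *Kcnab3* shares 5.13% of its exon bases with an antisense gene. The other beta genes had ratios of 0.76 (*Kcnab1*) and −0.40 (*Kcnab2*).

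**Figure D5:**
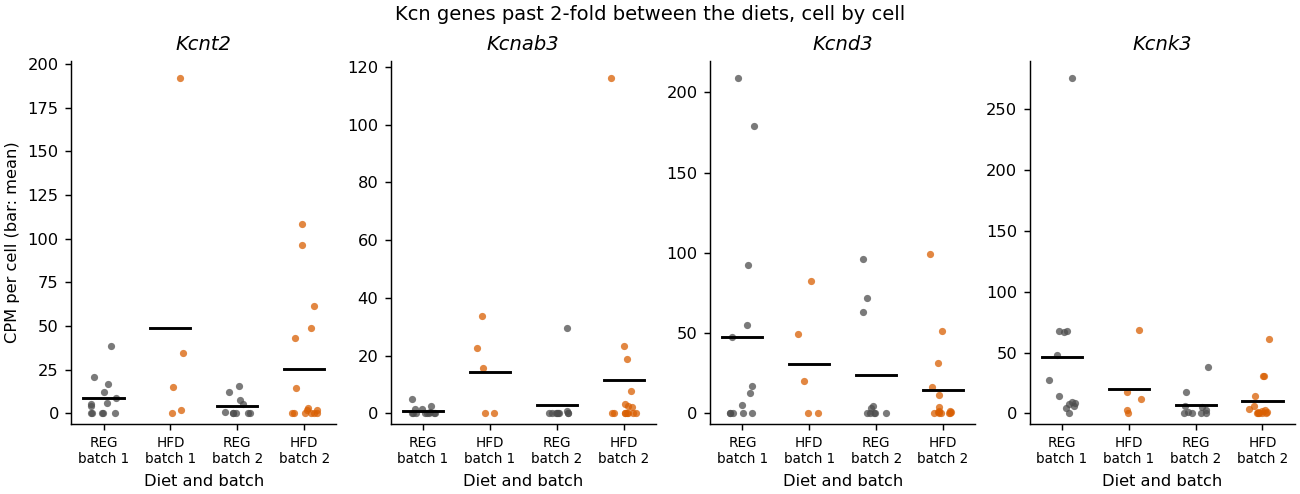
CPM per cell of the 4 Kcn genes past 2-fold between the diets, by diet and batch (grey, REG; orange, HFD; bar, mean). Each group holds cells at or near 0, and the highest cells are HFD for *Kcnt2* and *Kcnab3* and REG for *Kcnd3* and *Kcnk3*.

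*Kcnd3*, a Shal pore, was the member called lower. In REG cells it ran from 0 through 12.6 to 209 CPM in batch 1 and from 0 through 1.61 to 96.3 CPM in batch 2. In the HFD cells of batch 1 it was at 0, 0.258, 20.4, 49.5 and 82.6 CPM, and in batch 2 it ran from 0 through 1.22 to 99.6 CPM. The diets overlapped up to the highest HFD cell at 99.6 CPM, and REG cells at 179 and 209 CPM lay above it. *Kcnd3* was found in 14 cells of each diet.

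The mean of *Kcnd3* was 37.3 CPM ± 59.0 (SD, 23 cells) in REG and 18.6 CPM ± 29.7 (SD, 20 cells) in HFD, a log2 ratio of −1.004, with −0.64 within batch 1 and −0.71 within batch 2. Neither batch alone reached 2-fold. With any 1 cell left out the ratio lay between −1.38 and −0.67, and the call was lost in 22 of 43 such cases. *Kcnd2*, the leading Shal pore, had a ratio of 0.12.

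*Kcnk3*, an acid-sensitive leak channel, passed 2-fold but was not called. Its log2 ratio was −1.19, with −1.20 within batch 1 and 0.55 within batch 2. In the REG cells the mean was 46.5 CPM in batch 1 and 7.12 CPM in batch 2, and in the HFD cells it was 20.2 and 10.4 CPM. The highest REG cell, at 276 CPM, made up 40.8% of the REG mean. Without it the ratio was −0.50.

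On the CPM scale the leading members lay closer to 0. *Kcnip2* had 364 CPM ± 386 (SD, 20 cells) in HFD and 274 CPM ± 153 (SD, 23 cells) in REG, a log2 ratio of 0.41 with 0.33 and 0.67 within the batches. *Kcnab1* had a ratio of 0.76, with 0.38 and 0.70, and leaving out single cells kept it within 0.51 to 0.89. *Kcnq5* had −0.89, with −0.66 and −0.93, and stayed between −1.14 and −0.80. *Kcnk2* had −0.64, with −0.26 and −0.93.

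Some pore genes had pooled ratios that hid opposite signs in the batches. *Kcnt1* had a log2 ratio of 0.03, with 0.87 in batch 1 and −0.26 in batch 2. *Kcnk1* had −0.50, with 1.02 and −1.42. The inward rectifiers *Kcnj2* and *Kcnj4* each kept their sign in both batches but pointed apart, with −0.51 (−0.34 and −0.73 within the batches) and 0.89 (0.22 and 1.03). *Kcnj3* had −0.38 over all cells but 0.24 and 0.12 within the batches, so the pooled sign held in neither batch.

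Smaller sets of cells gave more ratios past 2-fold, between the diets and within 1 diet alike. In batch 1, HFD cells were more than 2-fold higher than REG cells in 11 of 49 members (22.4%, where 18.3% of all genes with a ratio were) and lower in 9 (18.4%, where 23.8% of all were). In batch 2 they were higher in 11 (22.4%, where 13.5% of all were) and lower in 7 (14.3%, where 21.1% of all were). In REG cells alone, 5 of 49 members were more than 2-fold higher in batch 2 than in batch 1 (10.2%, where 18.8% of all filtered genes were) and 13 were more than 2-fold lower (26.5%, where 18.5% of all filtered genes were). *Kcnab3* was among the former, and *Kcnt2* and *Kcnk3* were among the latter. Whether this spread lies between batches or between mice cannot be told apart.

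Genes that act with the channels were read from a list of 23 scaffolds, modulators and partners (such as *Dpp6*, *Lgi1*, *Cntnap2*, *Ank3* and the calmodulin genes). Of these, 17 passed the filter, with a median log2 ratio of −0.08. Past 2-fold was *Amigo1*, a partner of Shab channels, which was higher in HFD cells at 1.20 but had −1.89 in batch 1 and 1.33 in batch 2, so it was not called. None was lower past 2-fold. The partners tied to Shaker channels of the axon pointed both ways, with −0.70 for *Cntnap2*, −0.68 for *Lgi1*, 0.65 for *Adam22* and 0.42 for *Cntn2*.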

How the data were processed

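Each sample was 1 neuron, sequenced from the pipette content after cDNA synthesis with 2 SMART-Seq kits (v4 and Single Cell; which cells had which is not given in the sources used here) and tagmentation. The authors pseudo-aligned the reads with kallisto to Ensembl transcripts of GRCm38 and deposited estimated counts per gene. The authors also deposited TPM values per gene, which divide by transcript length and library size. Of the estimated counts above 0, 65.5% lay within 0.01 of a whole number. Whether reads were counted by strand is not given in the sources used here. From the estimated counts, CPM were computed with each cell's total, and the filter was more than 15 CPM in at least 5 cells and a mean above 4 CPM. A diet ratio is the log2 ratio of mean CPM without pseudocount. Since the labels name no mouse, each diet was 1 sample and no test was run. Cells were numbered within diet and batch in accession order. Intervals are exact (Clopper-Pearson, 95%). Limits for a count of 0 take 3 in place of 0 and are not exact intervals. Intervals and limits alike cover counting error only. Genes were named when among the leading members by mean TPM, the leading member of a family, a subunit of a known pair, a member known from another cell type, or past 2-fold between the diets. *Kcnq1*, *Kcne3*, *Kcnk7*, *Kcns2* and *Kcnmb1* were named after their values were seen. The members, gene lists and alternatives were chosen with earlier results of these data known. Alternatives were the authors' TPM, TMM factors (edgeR 4.0.16), DESeq2 1.42.0 size factors and edgeR coefficients on rounded counts (values only), totals without *Lars2* and *Gm19220*, thinning to 150000 counts, summed counts, medians, means of log2(CPM + 1), other filters, single batches and leaving out each cell. The script was tested on simulated data. Python 3.11.15, pandas 2.3.3, scipy 1.17.1 and R 4.3.3 were used, with the GENCODE M21 annotation and transcripts for positions and sequences. Values and sequences of some members are not reported here.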

Additional observations from a re-analysis of the deposited data

Results flagged for a closer look

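Genes with a Kcn symbol that the choice of members left out had counts in a few cells, above the limit of 3 counts, and no control samples exist for them. *Kcne1l* had a mean of 1.39 CPM over the 43 cells, with counts in 2 cells and a highest value of 34.0 CPM, and its mean was 1.11 CPM in REG and 1.70 CPM in HFD cells. *Kcnrg* had a mean of 1.12 CPM, with counts in 3 cells and a highest value of 46.6 CPM, and its mean was 2.07 CPM in REG and 0.0186 CPM in HFD cells. No difference between the diets was tested for either gene.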

How the results depend on the processing

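The number of members called higher in HFD cells was 2. It was 5 with TMM factors, 5 with DESeq2 size factors, 4 with totals that left out *Lars2* and *Gm19220*, 4 with no filter on low values, 1 with a filter of 15 CPM in at least 10 cells, and 5 with only cells of at least 1000 CPM of medium spiny neuron markers, a setting chosen after seeing the data. *Kcnab3* was not among the genes tested under the 10-cell filter. The number called lower was 1, and it was 5 with the authors' TPM, 0 with TMM factors, 0 with DESeq2 size factors, 0 without *Lars2* and *Gm19220*, 2 after thinning, 5 with summed counts, 5 with no filter and 0 with the cells chosen by medium spiny neuron markers. With each cell left out in turn, 2 to 4 members were called higher and 0 to 3 lower. The TMM factors moved the median ratio of all genes by 0.14 and the DESeq2 size factors by 0.32. The cause of these changes was not tested. The log2 ratio of the summed CPM of all members, 0.05, was 0.026 with TPM, 0.20 with TMM factors, 0.52 with DESeq2 size factors, −0.036 with medians, 0.30 in batch 1, 0.037 in batch 2 and 0.17 with the cells chosen by medium spiny neuron markers, and lay between −0.023 and 0.11 with each cell left out. The median number of members with counts, 43, was 33 after thinning and 24 at 15 CPM or more. The ratio of *Kcnk3* was 0.55 in batch 2 and 0.014 in the edgeR fit with batch, and that of *Kcnt2* was −0.59 with medians. The ratio of medians has no value where a median is 0, as for *Kcnab3*. No paired analysis was possible because the cell numbers only name cells and no test was run.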

Other observations

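Some members below the filter on low values reached a high level in single cells. *Kcnn1*, a calcium-activated SK channel gene, had counts in 6 cells and a highest value of 103 TPM. The REG cell with that value had 24.9 CPM, while the highest CPM, 72.4, was in another REG cell at 46.0 TPM. *Kcnk7*, a two-pore gene, had counts in 5 cells and a highest value of 139.8 TPM.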
